A study of Mus musculus with 30 samples.

Results

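The genes described here are the odorant receptor (OR) genes of mouse chromosome 11. They were taken as every OR row of the NanoString table whose gene lies on chromosome 11 in the study's OR naming table. That gives 30 of the 564 OR genes measured, and 2 further chromosome 11 genes of the naming table, Olfr1391 and Olfr54, were not analysed here. RNA came from whole olfactory mucosa of mice 21 days old, with 1 μg of RNA and 1 mouse in each of 30 lanes, and each of 5 groups held 6 mice. Wild-type 129 mice and homozygous ΔOlfr7Δ mice, in which a cluster of OR genes around Olfr7 is deleted from chromosome 9, were measured on cartridge MK38. The former had 129S6/SvEvTac as background strain and the latter inbred 129SvEv, and both are called 129 mice. ΔHxΔP mice, homozygous for deletions of the H element (chromosome 14) and of the P element (chromosome 7), were measured on cartridge MK29 beside their companion wild-type mice, here called wild-type MK29. A further wild-type group, the companions of the ΔH strain, was measured on cartridge MK37 and is called wild-type MK37. The mice of MK29 and MK37 were of a mixed C57BL/6J and 129SvEv background. No deletion lies on chromosome 11. Males and females were unequally divided. Females were 4 of the wild-type 129 mice and 2 of the ΔOlfr7Δ mice, 3 of the wild-type MK29 mice and 1 of the ΔHxΔP mice, and 4 of the wild-type MK37 mice.

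OR genes encode the receptors that bind odorants on the cilia of olfactory sensory neurons. A mature neuron transcribes 1 allele of 1 OR gene out of the whole family, and OR genes lie in clusters on most chromosomes. Elements such as H and P act in cis on OR genes near them. The chromosome 11 genes are class II receptors, and the MOR number of a gene names its family by sequence similarity. In RNA of whole mucosa, fewer neurons choosing a gene and less RNA per choosing neuron cannot be told apart.

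By the positions in the naming table, for which no source used here names a genome build, the 30 genes fall into 5 blocks separated by gaps of over 1 Mb. Block 1 holds 6 measured genes from Olfr56 to Olfr1388 within 465.9 kb, and block 2 holds Olfr1378 and Olfr1377. Block 3 holds 10 genes from Olfr30 to Olfr223 within 1135.1 kb (chromosome 11, 58268502 to 59403589), with Olfr222 and Olfr223 783.6 kb beyond the other 8. Block 4 holds 11 genes from Olfr1 to Olfr412 within 970.5 kb (73208578 to 74179111), and block 5 is Olfr464 alone. The largest families were MOR135 and MOR256 with 5 genes each and MOR255 with 4. MOR135 and MOR255 lay wholly in block 4, whereas MOR256 was split between blocks 1 and 3.

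Each gene was counted through 1 capture and 1 reporter probe that bind its RNA side by side, so a count stands for an RNA molecule and no gene length enters. Probes can differ in efficiency, which was not tested, and an order of levels between genes is an order of probe counts. The probes of the genes that the results below turn on are shown as deposited, with capitals on the longest run of letters that also occurs in a probe of another OR gene of the table:
Olfr323 capture: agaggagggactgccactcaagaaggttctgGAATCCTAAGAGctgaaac
Olfr323 reporter: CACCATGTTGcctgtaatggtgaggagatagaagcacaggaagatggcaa
Olfr319 capture: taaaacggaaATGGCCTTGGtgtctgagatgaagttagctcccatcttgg
Olfr319 reporter: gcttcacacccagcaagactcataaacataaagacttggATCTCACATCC
Olfr317 capture: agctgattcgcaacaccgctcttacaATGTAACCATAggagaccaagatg
Olfr317 reporter: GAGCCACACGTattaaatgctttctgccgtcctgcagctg
Olfr314 capture: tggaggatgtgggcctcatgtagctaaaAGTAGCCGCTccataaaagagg
Olfr314 reporter: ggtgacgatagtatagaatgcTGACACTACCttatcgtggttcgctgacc
Olfr139 capture: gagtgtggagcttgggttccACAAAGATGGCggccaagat
Olfr139 reporter: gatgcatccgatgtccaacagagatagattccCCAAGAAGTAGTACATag
Olfr399 capture: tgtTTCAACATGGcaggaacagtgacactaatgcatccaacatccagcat
Olfr399 reporter: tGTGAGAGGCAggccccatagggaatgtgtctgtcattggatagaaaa

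Over the 60 probes of the 30 genes, which were 39 to 50 bases long, the longest shared run had a median of 11 bases and was longest, at 20, in the capture probe of Olfr385, which shares it with Olfr1301. Olfr323 and Olfr319, whose levels move together below, thus have probes whose longest match to any other OR probe of the table was 12 bases, and neither found it in the other. Whether a base difference between mouse strains lies under any of these probes was not tested, since no genome of either strain was used here.

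RefSeq windows from 250 bases before to 50 bases after the annotated gene start (GRCm38.p6) existed for 25 of the 30 genes. In 15 of these windows the annotated start was followed at once by ATG, so that the window precedes the coding sequence and may miss the transcription start. Letters of known binding cores were searched in them. The homeodomain core TAATTA occurred on either strand in 4 of the 25 windows (16.0%, against 5.3% of 32851 windows of all genes), those of Olfr324, Olfr323, Olfr319 and Olfr1. TAATGA occurred in 8 of the 25 (against 9.8% of all), and the palindromic core of the Olf1/EBF site, searched with any letters at its centre, in 0 (against 0.9%). These are matches of letters and not shown sites, and no share was taken over the windows of other OR genes alone.

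Counts were scaled so that positive controls and the 5 reference genes Adcy3, Ano2, Cnga2, Gnal and Omp, all markers of mature olfactory neurons, matched between lanes, and levels are given as scaled counts. OR genes took 618163 to 1013430 raw counts per lane, and the 30 genes 24928 to 44714 of them, or 3.78 to 4.61% of the counts of OR genes with values in every lane. Every one of the 30 genes had a value in every lane, and the lowest, 112 scaled counts, stood above the background of 32.4 to 56.2 (the mean plus 2 SD of 8 negative controls in each lane). Before the scaling by reference genes, their geometric mean was highest in the ΔOlfr7Δ mice, with a median of 50225 against 43874 in wild-type 129 mice and overlapping ranges. ΔHxΔP mouse 6 stood farthest from its group over all OR genes, with a median deviation of 0.17 on the log2 scale.

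**Figure D1:**
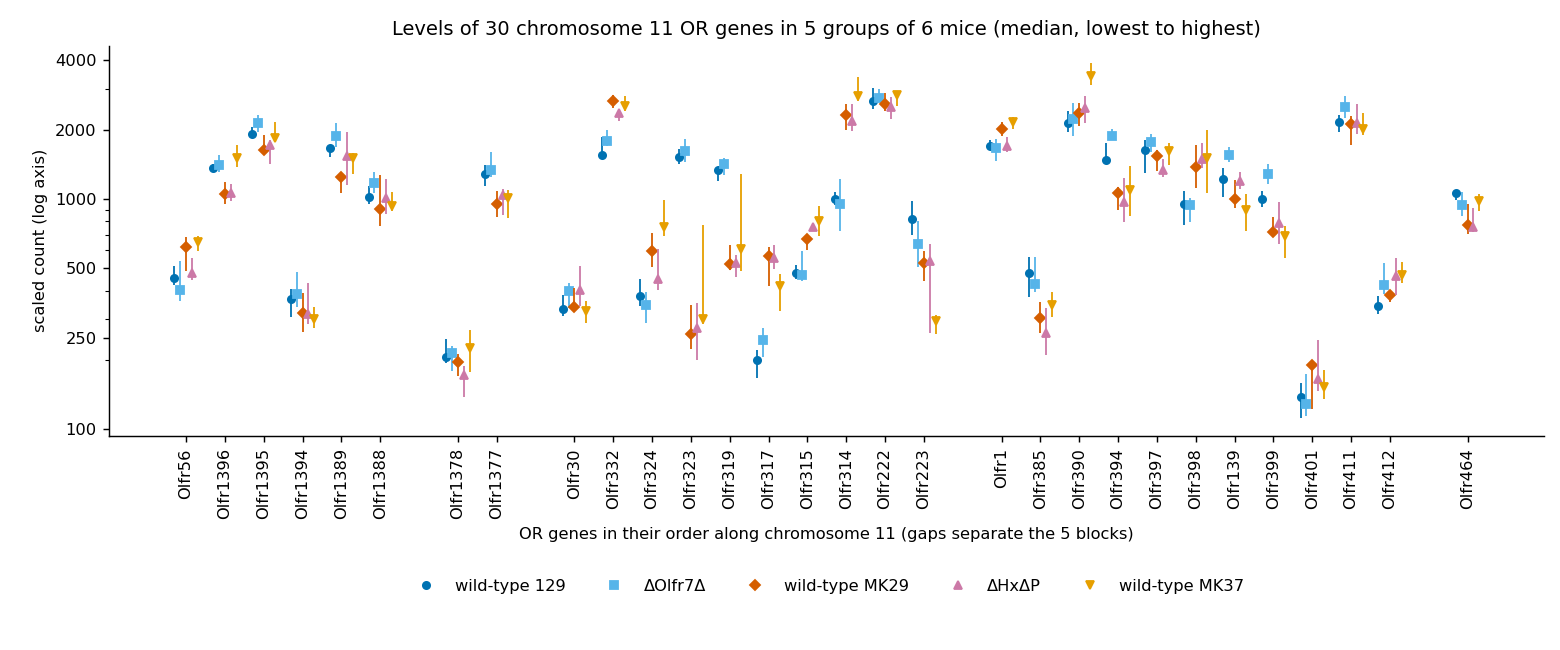
Levels of the 30 chromosome 11 OR genes in scaled counts (log axis), in gene order, for the 5 groups of 6 mice. Points are group medians and lines run from the lowest to the highest mouse. Block 3 shows the widest separation between the 129 groups (circles, squares) and the mixed groups (diamonds, triangles).

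In wild-type 129 mice the genes spanned a 19.2-fold range of medians, from Olfr222 (MOR256) to Olfr401 (MOR255). Olfr222 had 2470 scaled counts in the lowest mouse, a median of 2657 and 3044 in the highest. It was followed by Olfr411 (1963, 2167 and 2323) and Olfr390 (1957, 2132 and 2402), a MOR135 gene. At the low end stood Olfr401 (112, 138 and 158), Olfr317 (167, 200.0 and 220) and Olfr1378 (194, 207 and 247). Of the 29 neighbours in this order, 24 had overlapping ranges, so the full order was not resolved. Olfr222 was separate from the next gene, and so was Olfr401. The median over the 30 genes, 1038, was close to the 1090 over all OR genes of that group.

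The order was not the same in every group. The highest median belonged to Olfr222 in wild-type 129, ΔOlfr7Δ and ΔHxΔP mice, to Olfr332 (2659) in wild-type MK29 mice and to Olfr390 (3413) in wild-type MK37 mice. Olfr401 was lowest in all 5 groups.

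Mice of 1 group differed little at most of these genes. The SD of log2 levels had a median over the 30 genes of 0.11 in wild-type 129, 0.13 in ΔOlfr7Δ, 0.14 in wild-type MK29, 0.15 in ΔHxΔP and 0.12 in wild-type MK37 mice. The values over all OR genes were 0.11, 0.14, 0.14, 0.18 and 0.12. Pooled over the 3 wild-type groups, the SD was largest for Olfr323 (0.42), Olfr319 (0.37) and Olfr398 (0.26), against a median of 0.13 over all OR genes, and smallest for Olfr1 (0.07). Olfr398 spread widely in both mixed groups. It had 1112 scaled counts in the lowest, a median of 1376 and 1714 in the highest wild-type MK29 mouse, and 1063, 1514 and 1987 in wild-type MK37 mice. In wild-type 129 mice it ran from 774 to 1083 with a median of 955. The spread of Olfr323 and Olfr319 came from 2 mice, described below.

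The first comparison asked how mixed and 129 wild-type mice differed. Of the 30 genes, 11 were higher and 12 lower in the mixed mice than in wild-type 129 mice, and 7 did not pass the test (limma, Benjamini-Hochberg adjusted p of 0.05). Among all OR genes tested 77.0% passed, 39.7% higher and 37.3% lower, so the 76.7% of the chromosome 11 genes was no more than the background. The mixed and 129 mice did not overlap for 11 of the 30 genes (36.7%, beside 38.3% of all OR genes). The sizes in block 3 were larger. The median absolute log2 difference was 0.95 over its 10 genes, against 0.16 in block 1, 0.34 in block 4 and 0.32 over all OR genes. The 5 chromosome 11 genes that differed more than 2-fold were Olfr323, Olfr314, Olfr317, Olfr223 and Olfr319, all of block 3. That is 16.7% of the 30 genes, beside 9.84% of all OR genes. No test was made of block 3 against the rest.

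Olfr323 showed the largest difference of the 30 genes. Its scaled counts were 1416 in the lowest wild-type 129 mouse, 1527 in the median and 1644 in the highest, against 223, 261 and 348 in wild-type MK29 mice and 287, 300.0 and 770 in wild-type MK37 mice. The groups did not overlap, and the mixed mice were 4.67-fold lower (log2 difference -2.22 ± 0.17 SE, limma adjusted p = 2.8e-11). Olfr319, its neighbour at 75.7 kb, went the same way at 1196, 1338 and 1379 in wild-type 129 mice against 494, 522 and 631 in wild-type MK29 mice and 488, 606 and 1287 in wild-type MK37 mice. Its mixed mice were 2.11-fold lower (log2 difference -1.08 ± 0.15 SE, limma adjusted p = 8.21e-07), with 1 mixed mouse inside the range of the 129 mice. The deletion strains, whose mice entered neither value, had medians on the side of the wild-type mice that shared both their background and their cartridge. These 2 cannot be told apart. Olfr323 stood at 1614 in ΔOlfr7Δ and 276 in ΔHxΔP mice, and Olfr319 at 1416 and 530.

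Other genes of the block, on both sides of this pair, moved the other way. Olfr317 (MOR256) had 167, 200.0 and 220 scaled counts in wild-type 129 mice, 421, 567 and 618 in wild-type MK29 mice and 328, 420 and 472 in wild-type MK37 mice. It was 2.34-fold higher in the mixed mice (log2 difference 1.23 ± 0.09 SE, limma adjusted p = 1.82e-11) without overlap. Olfr314 (MOR278) had 943, 1005 and 1072 in wild-type 129 mice against 1993, 2307 and 2599 in wild-type MK29 mice and 2657, 2801 and 3379 in wild-type MK37 mice. This 2.57-fold difference had the smallest adjusted p of the 30 genes (log2 difference 1.36 ± 0.06 SE, limma adjusted p = 1.21e-16). Olfr332 rose less, from a median of 1561 in wild-type 129 mice (1530 to 1868) to 2659 (2488 to 2828) and 2548 (2421 to 2797) in the mixed groups, 1.60-fold (limma adjusted p = 8.91e-12). Olfr324 and Olfr315 were higher by 1.76-fold and 1.53-fold.

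Olfr223, at the end of the block, was lower in mixed mice and differed between the mixed groups. Its scaled counts were 699, 821 and 978 in wild-type 129 mice, 443, 526 and 597 in wild-type MK29 mice, and 260, 294 and 315 in wild-type MK37 mice. The mixed mice were 2.11-fold lower (log2 difference -1.08 ± 0.08 SE, limma adjusted p = 4.67e-12). Olfr222, which lies 17.4 kb from it, and Olfr30, the first gene of the block, did not pass the test. Block 3 thus held 5 genes that were higher, 3 that were lower and 2 that did not pass. Counts summed over its 10 genes were 10413 ± 461 (SD, n = 6) in wild-type 129, 11119 ± 549 (SD, n = 6) in wild-type MK29 and 12069 ± 369 (SD, n = 6) in wild-type MK37 mice. The sums of wild-type MK29 mice overlapped those of both other groups, and the sums of wild-type 129 and MK37 mice did not overlap.

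Outside block 3, no gene differed more than 2-fold. In block 4, 5 genes were higher in the mixed mice and 4 lower, the widest being Olfr398 (1.52-fold higher) and Olfr385 (1.44-fold lower), and in block 1 Olfr56 was higher and 3 genes lower. Genetic background and cartridge cannot be told apart in this comparison, since all 129 mice were on MK38 and all mixed mice on MK29 and MK37. Against wild-type MK29 mice alone, the log2 difference of Olfr323 was -2.52, and against wild-type MK37 mice alone -1.92. The calls on Olfr1394, Olfr1395 and Olfr401, with differences of 1.08-fold to 1.21-fold, were lost when 1 of 10, 13 or 2 mice in turn was left out, with adjusted p up to 0.117.

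**Figure D2:**
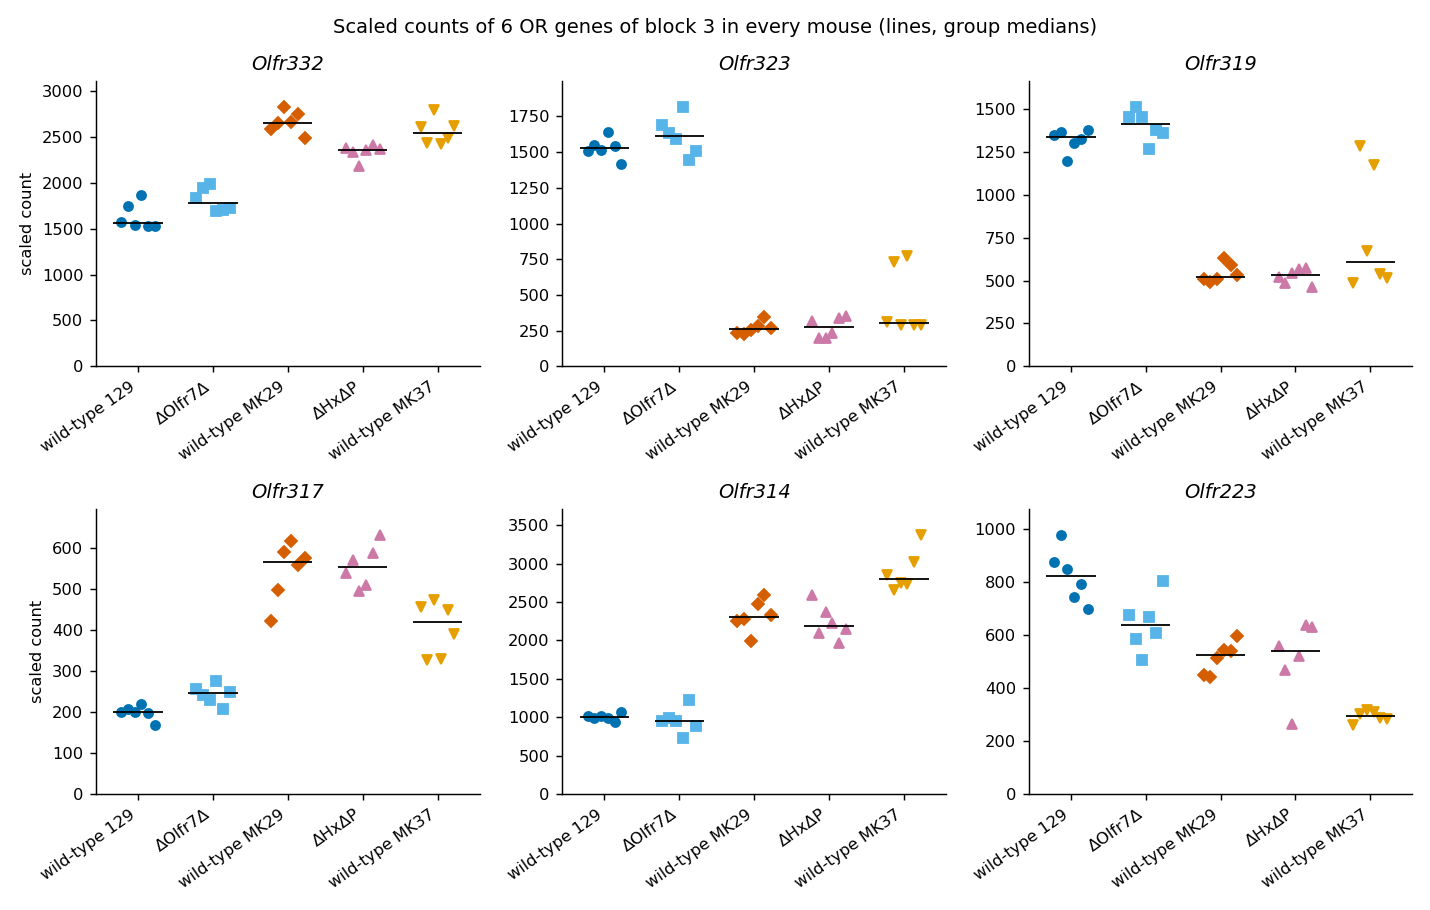
Scaled counts of 6 block 3 genes in every mouse, with a linear axis from 0 and lines at the group medians. Olfr323 and Olfr319 are high in both 129 groups and Olfr332, Olfr317 and Olfr314 in the mixed groups, and 2 wild-type MK37 mice lie apart at Olfr323 and Olfr319.

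Mice 2 and 4 of the wild-type MK37 group stood apart at the Olfr323 and Olfr319 pair. Olfr323 had 307, 728, 290, 770, 293 and 287 scaled counts in mice 1 to 6, so both mice lay between the other 4 and the 129 mice. Olfr319 had 488, 1287, 673, 1174, 540 and 513, and there mouse 2 lay within the range of the 129 mice and mouse 4 just under it. At Olfr317, which was low in 129 mice, the same mice were the lowest of the 6, at 328 and 330 against 390 to 472 in the others. They were also the lowest at Olfr332 (2421 and 2435 against 2490 to 2797) and at Olfr314 (2657 and 2741 against 2747 to 3379), by a smaller margin. At each of these 5 genes they sat at the end of their group nearer the wild-type 129 median.

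Both mice together held 1 end of the 6 values in 5 of the 10 genes of block 3, in 7 of the 30 chromosome 11 genes (23.3%) and in 39 of 558 OR genes (6.99%). Outside block 3 the mice were lowest at Olfr1388 (891 and 903 against 908 to 1076) and highest at Olfr397 (1663 and 1752 against 1406 to 1643). The wild-type 129 medians of these genes, 1016 and 1637, lay within the range of the other 4 mice. Both mice were picked for their Olfr323 values after these had been seen, so that gene is among the 5 by choice. The shares are given with no test. Both mice were female, as were 2 of the other 4, and over all OR genes they lay close to their group, with median deviations of 0.02 and -0.02 on the log2 scale. The cause was not tested. Without these 2 mice, Olfr323 was lower in the mixed mice by a log2 difference of -2.45 and Olfr319 by -1.27.

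**Figure D3:**
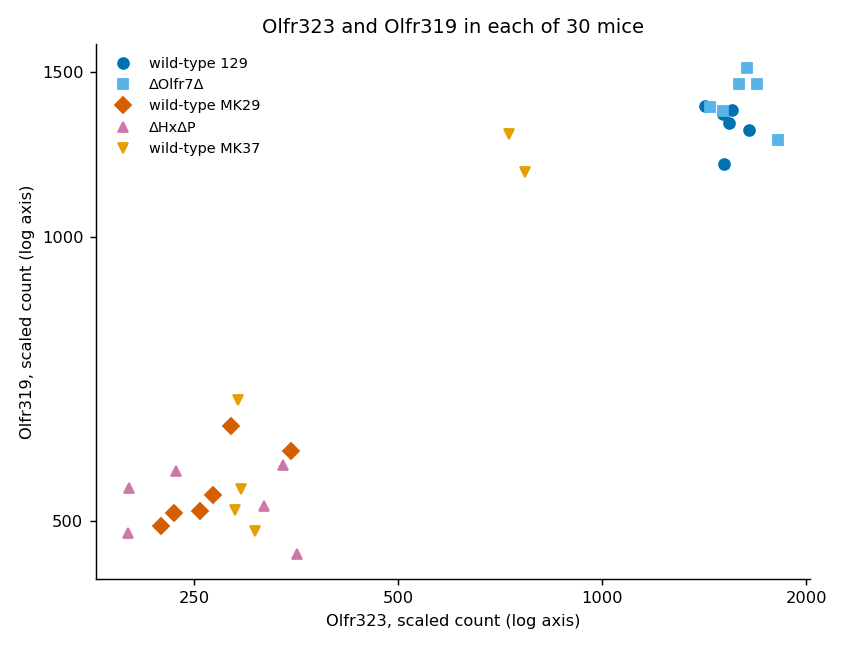
Olfr319 against Olfr323 in each of the 30 mice, in scaled counts on log axes. The 129 mice lie at the upper right, the mixed mice at the lower left, and wild-type MK37 mice 2 and 4 between them in Olfr323.

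The wild-type groups of mixed background were compared next, to see how far such groups differ without a deletion. Of the 30 genes, 9 were higher in wild-type MK37 than in wild-type MK29 mice, 2 were lower and 19 did not pass, a share of 36.7% beside 40.0% of all OR genes (29.3% higher and 10.8% lower). The groups did not overlap for 6 of the 30 genes, beside 20.1% of all OR genes. When the median of ratios between OR genes set the scale of each lane, which moves the median of all OR genes from 0.10 to -0.01 on the log2 scale, the split was 7 higher and 6 lower. Both lower genes were in block 3. Olfr223, whose values are given above, was 1.74-fold lower in wild-type MK37 mice, with no overlap (limma adjusted p = 5.17e-06). Olfr317 was 1.35-fold lower (limma adjusted p = 0.007), and without mice 2 and 4 its adjusted p was 0.0576.

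Among the higher genes, Olfr390 ran from 3133 to 3890 in wild-type MK37 mice with a median of 3413, and from 2070 to 2616 with a median of 2371 in wild-type MK29 mice. The groups did not overlap, and the difference was 1.48-fold (log2 difference 0.56 ± 0.07 SE, limma adjusted p = 1.25e-05). Olfr1396 (MOR276) showed much the same, with 1379, 1511 and 1719 against 954, 1047 and 1190, or 1.45-fold (limma adjusted p = 1.35e-05). In wild-type 129 mice Olfr1396 was between them and varied least of the 30 genes, from 1310 to 1419. Olfr314 and Olfr412 were each 1.25-fold higher, also without overlap. Olfr412 had 434, 469 and 532 in wild-type MK37 mice and 356, 384 and 397 in wild-type MK29 mice. Colony and cartridge cannot be told apart here. Leaving out wild-type MK29 mouse 2 brought the lower genes from 2 to 4, and the call on Olfr1395 was lost without any 1 of 8 mice (adjusted p up to 0.086).

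**Figure D4:**
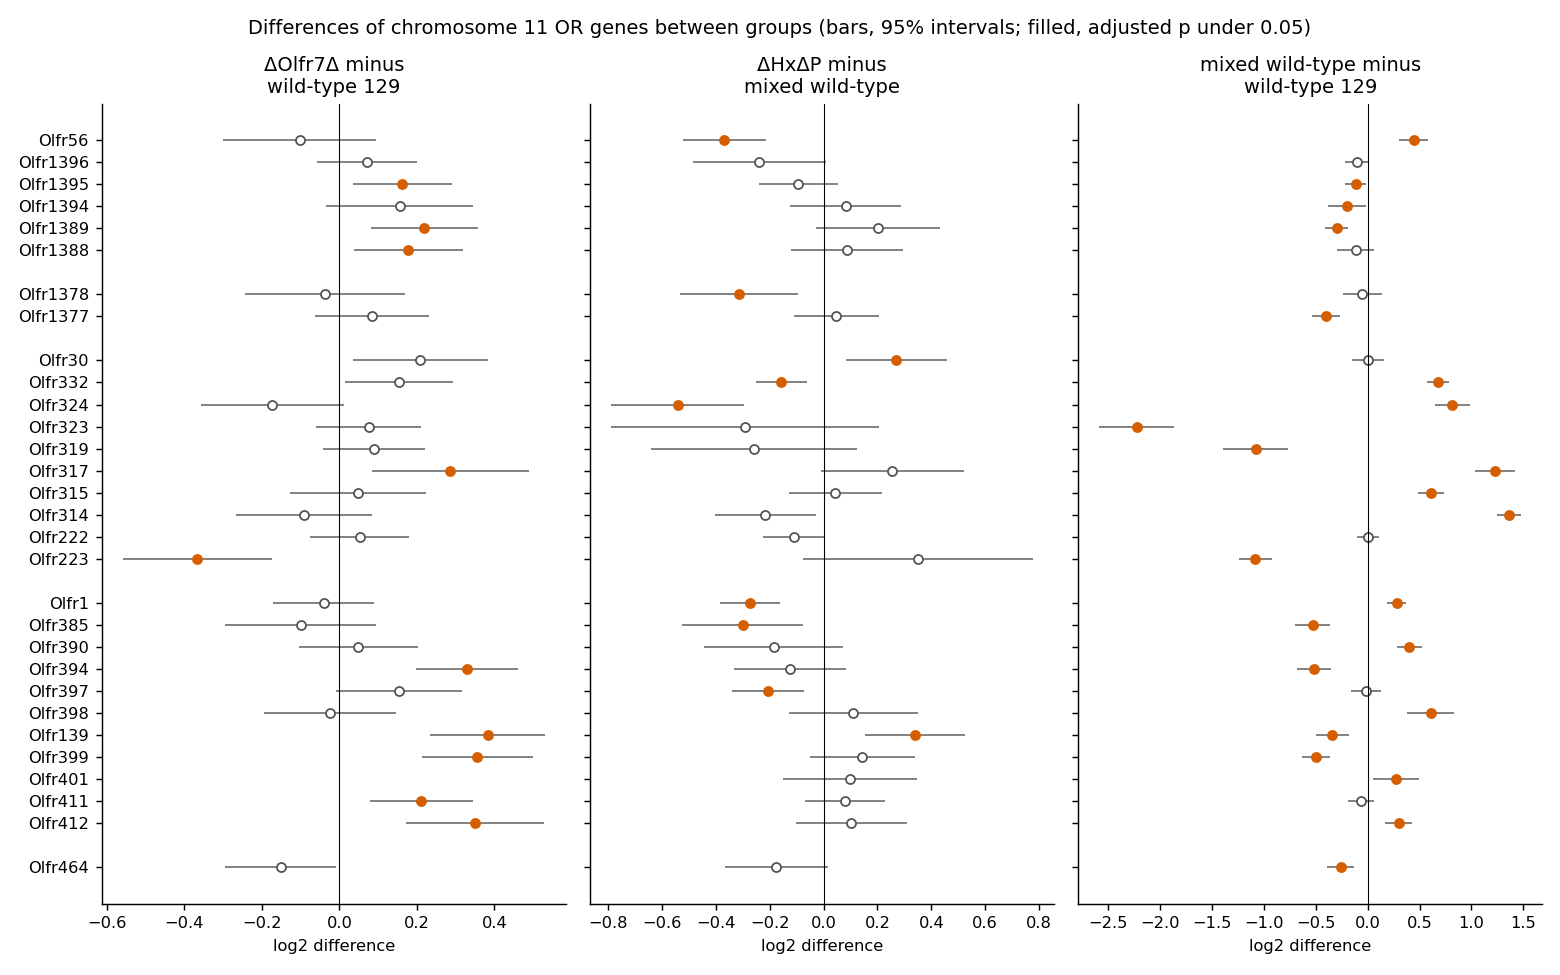
Log2 differences of the chromosome 11 genes with 95% intervals, for ΔOlfr7Δ minus wild-type 129 (left, 29 genes), ΔHxΔP minus mixed wild-type (centre, 30) and mixed minus 129 wild-type mice (right, 30). Filled points passed the adjusted p of 0.05, and each panel has its own scale.

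In ΔOlfr7Δ mice, 9 of the 29 chromosome 11 genes tested were higher than in wild-type 129 mice, 1 was lower and 19 did not pass. Olfr401 was under the minimum of 100 scaled counts after background subtraction in wild-type 129 mice and was not tested. The share called, 34.5%, was near the 35.5% of all OR genes (23.4% higher and 12.1% lower) and the 31.4% of OR genes outside chromosome 9. Deletion and colony cannot be told apart here, since the strain label names a supplier, Charles River Laboratories, for the wild-type 129 mice alone. All differences were small. The largest was 1.3-fold, no gene exceeded a fold change (FC) of 1.3 under the methods' tTREAT test, and the median log2 difference was 0.08 over the 29 genes and 0.06 over all OR genes. With the median of ratios, which puts the median of all OR genes at 0.01, the split was 9 higher and 3 lower, and with positive controls alone, which put it at 0.24, 18 and 0.

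Of the 9 higher genes, 5 lay in block 4, where 5 of 10 tested were higher and none lower, and 3 in block 1. The 4 genes of chromosome 11 without overlap between the groups all lay there (13.8% of 29 genes, beside 11.1% of OR genes that were higher without overlap). Olfr139 (MOR255) had 1444, 1556 and 1689 scaled counts in ΔOlfr7Δ mice and 1016, 1219 and 1370 in wild-type 129 mice, 1.3-fold higher (log2 difference 0.38 ± 0.07 SE, limma adjusted p = 0.000115). Olfr399, the next gene and of the same family, had 1158, 1284 and 1417 against 925, 1005 and 1089, 1.28-fold higher (limma adjusted p = 0.000185). Olfr411, the other tested MOR255 gene, was 1.16-fold higher with overlapping ranges (limma adjusted p = 0.0111).

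Olfr394 (MOR135) had 1824, 1881 and 2020 against 1414, 1481 and 1751, 1.26-fold higher (limma adjusted p = 0.00018). Olfr412 had 388, 423 and 527 against 316, 343 and 378, 1.27-fold higher (limma adjusted p = 0.00237). Summed over the 11 genes of block 4, counts were 14868 ± 229 (SD, n = 6) in ΔOlfr7Δ and 13240 ± 656 (SD, n = 6) in wild-type 129 mice, with no overlap. With overlap, the sums were also higher in block 1 (7495 ± 422 against 6767 ± 210) and block 3 (10702 ± 218 against 10413 ± 461). Block 2 was higher too, and block 5 lower. The positions of these genes in block 4 were read from the results and were not tested as a group.

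The gene that fell was Olfr223. It had 505.5, 638 and 801 scaled counts in ΔOlfr7Δ mice and 699, 821 and 978 in wild-type 129 mice, with overlap, and was 1.29-fold lower (log2 difference -0.37 ± 0.09 SE, limma adjusted p = 0.00283). Scaled by positive controls alone, its adjusted p was 0.147. Block 3 was otherwise little changed, with Olfr317 higher and 8 genes not passing, and Olfr323, Olfr319 and Olfr314 were among those 8 (log2 differences 0.08, 0.09 and -0.09). The calls on Olfr317, Olfr1395 and Olfr1388 were each lost when 1 mouse was left out, for 2 (wild-type 129 mouse 6 and ΔOlfr7Δ mouse 1), 8 and 9 of the 12 mice, with adjusted p between 0.0518 and 0.0952. Without ΔOlfr7Δ mouse 4 the count of lower genes was 2 instead of 1.

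In ΔHxΔP mice, 2 of the 30 genes were higher than in the 12 mixed wild-type mice, 7 were lower and 21 did not pass. These 9 of 30 stand beside 34.1% of all OR genes (10.2% higher and 23.9% lower) and 33.9% of those outside chromosomes 7 and 14. With the median of ratios the split was 4 higher and 5 lower. Within cartridge MK29, against its own 6 wild-type mice, 1 gene was higher and 4 were lower, and against wild-type MK37 mice alone 4 were higher and 10 lower. No gene passed the methods' tTREAT test at a FC of 1.5.

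The lower genes that also passed within the cartridge were Olfr1, Olfr56, Olfr324 and Olfr332. Olfr1 (MOR135), the first gene of block 4, had 1607, 1697 and 1862 scaled counts in ΔHxΔP mice, 1876, 2022 and 2168 in wild-type MK29 mice and 2019, 2158 and 2278 in wild-type MK37 mice. It was 1.21-fold lower without overlap (log2 difference -0.27 ± 0.05 SE, limma adjusted p = 0.000566, and 0.0166 within the cartridge). Olfr332 was likewise below every mixed wild-type mouse, at 2183, 2364 and 2411 against a lowest of 2421 in wild-type MK37 mice. It was 1.12-fold lower than the mixed wild-type mice (limma adjusted p = 0.0118). This call was lost under each other scaling, with a log2 difference of -0.08 by the median of ratios (adjusted p = 0.29), -0.11 by TMM (0.138) and -0.11 by positive controls alone (0.222). Olfr1 had an adjusted p of 0.0506 by positive controls alone and passed under the other scalings. These 2 genes without overlap were 6.67% of 30, beside 7.90% of all OR genes that were lower without overlap.

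Olfr56 (MOR276), at the end of block 1, had 445, 475 and 554 in ΔHxΔP mice against 489, 620 and 683 in wild-type MK29 mice and 595, 654 and 689 in wild-type MK37 mice, 1.29-fold lower (limma adjusted p = 0.000644). Its span overlaps that of Olfr1396 in the naming table, and each gene has its own probes. Olfr324 (MOR102) changed most, 1.46-fold lower (log2 difference -0.54 ± 0.12 SE, limma adjusted p = 0.00137). Its ΔHxΔP mice had 405, 450 and 608, wild-type MK29 mice 508, 595 and 712, and wild-type MK37 mice 689, 755 and 986. Within the cartridge the log2 difference of Olfr324 was -0.36 (limma adjusted p = 0.0289).

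The higher genes were Olfr139 and Olfr30. Olfr139 had 1106, 1193 and 1314 in ΔHxΔP mice, 915, 1005 and 1205 in wild-type MK29 mice and 730, 893 and 1053 in wild-type MK37 mice. It was 1.26-fold higher than the mixed wild-type mice (log2 difference 0.34 ± 0.09 SE, limma adjusted p = 0.00598), but within the cartridge the adjusted p was 0.0604. Olfr30 did not pass within the cartridge either (adjusted p = 0.175), and the same held for Olfr397, Olfr1378 and Olfr385. The 1 gene higher within the cartridge was Olfr1389 (adjusted p = 0.0478). Medians in wild-type 129 mice were 1707 for Olfr1, 454 for Olfr56, 380.5 for Olfr324, 1561 for Olfr332 and 1674 for Olfr1389. At each, the ΔHxΔP median was nearer to this value than the wild-type MK29 median was. The same held for Olfr139, but not for Olfr30, Olfr397, Olfr1378 and Olfr385. The share of 129 background in each mixed mouse was not tested and cannot be told apart from the deletion. The count of higher genes went from 2 to 1 without ΔHxΔP mouse 1, 5 or 6 and to 4 without mouse 3. Calls on Olfr1378, Olfr30 and Olfr385 were lost without 1 of 2 (ΔHxΔP mice 3 and 4), 3 (ΔHxΔP mice 1, 5 and 6) and 7 mice, with adjusted p up to 0.109. Olfr223 did not pass, and 1 ΔHxΔP mouse, mouse 3, had 262 scaled counts of it against 467 to 636 in the other 5.

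Whether the response to the deletions differed was tested directly, as the change in ΔOlfr7Δ minus the change in ΔHxΔP mice. For 8 of 29 genes it did (27.6%, beside 42.4% of all OR genes, 30.8% more positive and 11.6% more negative), 7 with the more positive change in ΔOlfr7Δ mice and Olfr223 with the more negative one. The median of all OR genes was itself 0.14 on the log2 scale, and with the median of ratios, which sets it at 0.01, the counts were 2 (Olfr394 and Olfr397) and 1 (Olfr223). Olfr394 had a log2 change of 0.33 in ΔOlfr7Δ mice, which passed by itself, and of -0.13 in ΔHxΔP mice, which did not, a difference of 0.45 ± 0.13 SE (limma adjusted p = 0.00375). Olfr397, also of MOR135, had 0.15, which did not pass by itself, and -0.21, which did, a difference of 0.36 ± 0.10 SE (limma adjusted p = 0.00533). These 2 genes kept the call under every other setting run, but single mice were not left out in turn for this difference. Olfr332 differed by 0.31 ± 0.08 SE (limma adjusted p = 0.00123), but its change of 0.15 in ΔOlfr7Δ mice did not pass by itself (adjusted p = 0.0758), and with the median of ratios the difference was 0.18 (adjusted p = 0.0667). Olfr223 had -0.37, which passed, and 0.35, which did not, and the difference of -0.72 ± 0.19 SE had an adjusted p of 0.00206 with both wild-type groups. Against wild-type MK29 mice alone, 3 genes were called as more positive and none, Olfr223 included, as more negative. Background, cartridge and colony differ along with the deletion.

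Neighbouring genes were last examined for levels that vary together between mice of 1 group. The 25 pairs were of measured genes that follow each other in a block. An OR gene not analysed here can lie between them, as Olfr1391 does between Olfr1394 and Olfr1389. Group means were removed from the log2 levels, and all 30 mice were used. The median r of the pairs was 0.34, against 0.17 over 128007 pairs of OR genes on different chromosomes and 0.40 over 478 neighbouring pairs on the other chromosomes. These medians moved with the scaling. By the median of ratios they were 0.065 for the 25 pairs and -0.005 for different chromosomes, and by positive controls alone 0.41 and 0.36. Of the 25 pairs, 14 lay above the median of different chromosomes. Over all 116 pairs of genes within a block the median r was 0.12, and over 319 pairs from different blocks of the chromosome 0.17. In 18 of the 25 pairs r was above 0. None passed an adjusted p of 0.05 over the 25 pairs for Pearson's r (permutation of mice within groups, two-sided), and 10 had an unadjusted p below 0.05. How many pairs on different chromosomes had r above 0 or such a p was not counted. Their 95th percentile of r was 0.606, and 1 of the 25 pairs, Olfr323 and Olfr319, lay above it. Without wild-type MK37 mice 2 and 4 its r was 0.10. By Spearman's rho, 1 other pair passed the adjusted p of 0.05.

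That pair was Olfr315 and Olfr314, which lie 7.2 kb apart and are both of family MOR278. Its r was 0.60 (permutation p = 0.00296, adjusted 0.065) and its rho 0.66 (permutation p = 0.00032, adjusted 0.008). Under this scaling by reference genes, unlinked genes reached the same r, since the 95th percentile of OR pairs on different chromosomes was 0.606. The OR gene with the highest r to Olfr315 was on chromosome 14 (r = 0.735), and that with the highest r to Olfr314 on chromosome 7 (r = 0.707). Within the cartridges r was 0.67 on MK29, 0.84 on MK37 and 0.54 on MK38. None of these passed by itself (permutation, adjusted p = 0.222, 0.304 and 0.404). Without the 2 mice farthest from the median of Olfr315, r was 0.72 (permutation p = 0.00035, adjusted 0.00875). Scaled by the median of ratios it was 0.76 (adjusted p = 0.00025), beside a 95th percentile of 0.45 for pairs on different chromosomes. Scaled by positive controls alone it was 0.81, beside a 95th percentile of 0.687.

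The highest r of the 25 belonged to Olfr323 and Olfr319, and it rested on wild-type MK37 mice 2 and 4. Because these stand apart, no value over all mice is given, and without them r was 0.10 (permutation p = 0.642). Olfr319 and Olfr317 had the lowest r, -0.48 (permutation p = 0.0662, adjusted 0.125, rho -0.35 with permutation p = 0.116), which rested on the same mice. Without them it was 0.07 (permutation p = 0.742). Olfr401 and Olfr411 of block 4 had an r of 0.51 (permutation p = 0.0114, adjusted 0.065) and a rho of 0.50 (permutation p = 0.00872). Without the 2 mice farthest from the median of Olfr401 it was 0.36, and on MK29, MK37 and MK38 alone it was 0.53, -0.08 and 0.72. Scaled by the median of ratios, r of this pair was 0.01. Olfr1389 and Olfr1388 of family MOR256 had an r of 0.51 (permutation p = 0.0053, adjusted 0.065) and a rho of 0.57 (permutation p = 0.00417). Its r was 0.42 without the 2 farthest mice and 0.13 with the median of ratios. On MK29, MK37 and MK38 alone it was 0.55, 0.12 and 0.56.

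**Figure D5:**
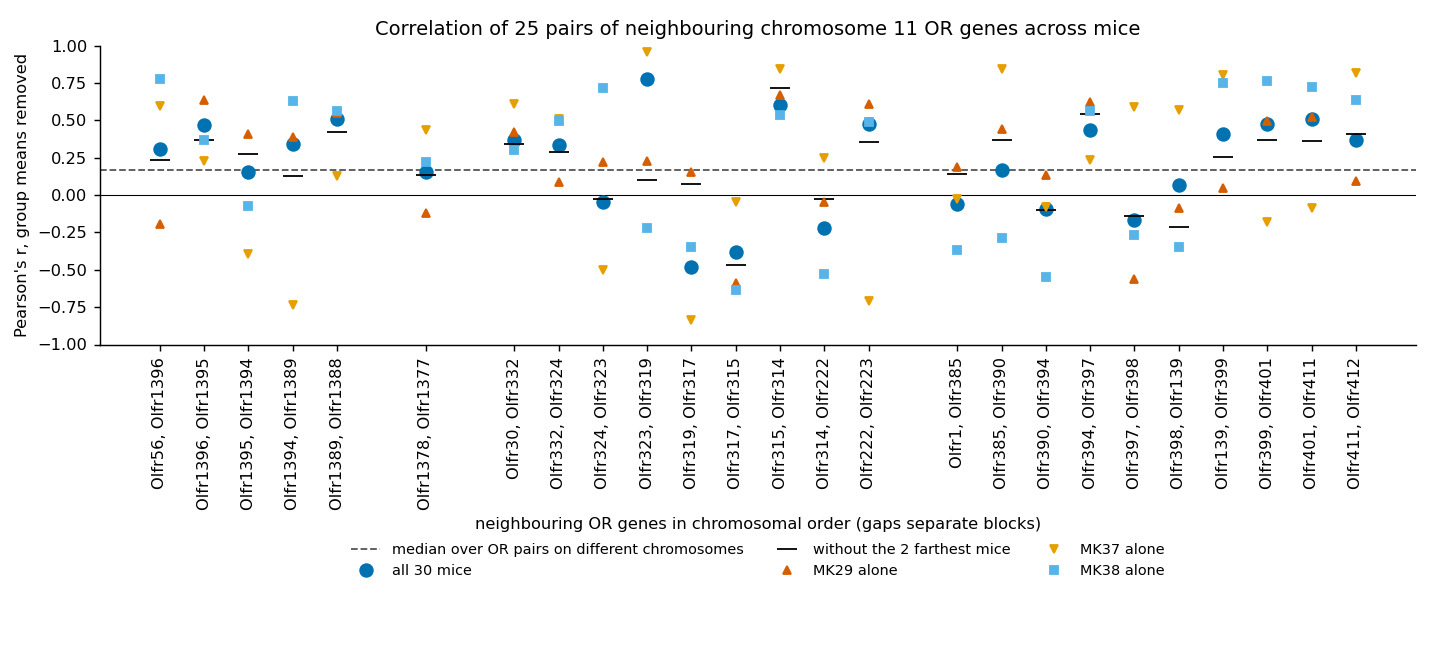
Pearson's r of 25 pairs of neighbouring measured genes with group means removed, over 30 mice (large circles), without the 2 farthest mice (dashes) and within each cartridge (small marks). The broken line is the median over OR pairs on different chromosomes. Olfr315 and Olfr314 have r of 0.67, 0.84 and 0.54 on MK29, MK37 and MK38, none of which passed by itself. The circle of Olfr323 and Olfr319 includes the 2 mice that stand apart.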

How the data were processed

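The authors deposited 1 table of raw NanoString counts for each probe and lane, not normalized, and every column of it was mapped to a mouse. Each lane was brought to a common scale with its 6 positive controls and next with 5 reference genes (geometric means over all 30 lanes). Groups and sexes came from the labels, and gene order and families from the study's OR naming table. OR genes were tested where the wild-type median, after background subtraction, reached 100. The test was limma 3.58.1 in R 4.3.3 with a mean-variance trend on log2(scaled count + 1), and p values were adjusted over all OR genes tested. Correlations used 100000 permutations of mice within groups in Python 3.11.15. Both steps were tested on simulated data. Genes given in full were the up to 5 of smallest adjusted p in a comparison, the 3 highest, 3 lowest and 3 most variable, and the 4 highest and the lowest pairs. Other genes named were picked after their values were seen. The members, lists and tests were chosen with earlier results of these data known. The labels do not say whether mice shared a litter. Alternatives were other scalings, background subtraction, a pseudocount of 20, no filter, no trend, sex or cartridge as covariate and the methods' tTREAT test. Each mouse was also left out in turn in the comparisons between groups, but not for the difference of the responses or the correlations.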

Additional observations from a re-analysis of the deposited data

Results flagged for a closer look

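Of 150 sets of 6 mice (30 genes in 5 groups), 7 had 1 mouse far from the other 5 by Dixon's criterion (4.67%, beside 5.68% of 2784 sets over all OR genes), and chance sets apart about 1 set in 20. In ΔHxΔP mouse 6, Olfr1394 had 433 scaled counts against 287 to 328 in the other 5, and Olfr464 had 918 against 719 to 778. In ΔHxΔP mouse 3, Olfr332 had 2183 against 2339 to 2411. ΔOlfr7Δ mouse 4 had 559.5 scaled counts of Olfr385 against 395 to 446. Wild-type MK29 mouse 5 had 1899.5 of Olfr1395 against 1571 to 1663, and mouse 3 had 599 of Olfr315 against 659 to 695.5. Wild-type MK37 mouse 6 had 986.5 of Olfr324 against 689 to 795. The 2 wild-type MK37 mice that lay apart at Olfr323 and Olfr319 are not among these, because the criterion looks for a single mouse.

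The change in ΔOlfr7Δ mice minus that in ΔHxΔP mice passed the test for 8 genes. On the log2 scale the difference was 0.31 for Olfr332, -0.72 for Olfr223, 0.31 for Olfr1396, 0.45 for Olfr394, 0.36 for Olfr397, 0.23 for Olfr1, 0.26 for Olfr1395 and 0.37 for Olfr324 (limma adjusted p between 0.00123 and 0.0273). Against wild-type MK29 mice alone, the call held for Olfr332, Olfr394 and Olfr397. It was lost for Olfr1396 (difference 0.04, limma adjusted p = 0.787), Olfr223 (-0.32, 0.269) and Olfr324 (0.19, 0.358). Olfr1395 (0.17, 0.184) and Olfr1 (0.18, 0.11) lost it as well. Background, cartridge and colony differ along with the deletion, and the part of background was not tested.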

How the results depend on the processing

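For ΔOlfr7Δ against wild-type 129 mice, with 9 chromosome 11 genes higher and 1 lower, positive controls alone gave 18 and 0, the median of ratios and TMM each 3 lower, and the tTREAT test 0 and 0. Sex as covariate gave 12 and 1. Olfr397 (log2 difference 0.23, limma adjusted p = 0.0125), Olfr332, Olfr30 and Olfr1394 then passed as higher, and Olfr1395 did not pass (limma adjusted p = 0.063). Leaving out 1 mouse gave 6 to 10 higher and 1 to 2 lower. For ΔHxΔP against mixed wild-type mice, with 2 higher and 7 lower, the median of ratios gave 4 higher and positive controls alone 2 lower. Sex as covariate gave 1 and 4, wild-type mice of the same cartridge only 1 and 4, those of the other cartridge 4 higher, cartridge as covariate 4 lower, and tTREAT 0 and 0. Leaving out both wild-type MK37 mice apart at Olfr323, chosen after seeing the data, gave 1 higher. Leaving out 1 mouse gave 1 to 4 higher and 5 to 8 lower. Between the mixed wild-type groups, the 2 lower genes became 6 with the median of ratios and with TMM, and leaving out 1 mouse gave 8 to 10 higher and 2 to 4 lower. For mixed against 129 wild-type mice the counts stayed within 1.5 times of 11 and 12 under every alternative run, with 10 to 11 higher and 10 to 13 lower when 1 mouse was left out. For the difference of the responses, with 7 and 1, the median of ratios gave 2 more positive, TMM 3, positive controls alone 16, and wild-type mice of the same cartridge only 3 and 0. Of the neighbouring pairs, where 0 passed, 2 did with the median of ratios, 12 with positive controls alone, 1 by Spearman's rho, 1 on MK38 alone and 1 without the 2 farthest mice. The cause of these changes was not tested. No direction of a called gene was reversed.

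Positive controls alone put the median of all OR genes at 0.24 on the log2 scale in ΔOlfr7Δ mice, 0.19 between the mixed groups and 0.27 for the difference of the responses. edgeR and DESeq2 were planned and not run. No paired analysis was possible because the labels give the groups no shared replicate numbers. The lowest value of the 30 genes, 112 scaled counts, stood above the background of every lane.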
